A study of Mus musculus with 8 samples.

Results

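The cytochrome P450 genes are the 101 of 22552 gene symbols in the deposited files whose name is Cyp followed by a digit. They fall into 40 subfamilies, a subfamily being the genes that share the family number and the next letter, and 5 of them are named as pseudogenes. They were followed in ribosome-bound RNA from UCP1-positive cells of females of 1 strain, labelled C57B/6 UCP1-TRAP. In such mice a construct driven by Ucp1 tags the ribosomes of marked cells with GFP, and anti-GFP immunoprecipitation recovers them together with bound mRNA. UCP1 uncouples mitochondrial respiration and is the heat-producing protein of brown and beige adipocytes. All groups shared strain, sex, age and housing. The animals were born at 30 °C, went to room temperature on weaning (3 weeks), entered 4 °C when 4 weeks old and gave their tissues at 6 weeks, after 2 weeks of cold. The groups were inguinal white adipose tissue (inguinal WAT, 3 libraries), perigonadal white adipose tissue (perigonadal WAT, 2 libraries) and interscapular brown adipose tissue (BAT, 3 libraries). Libraries from mice kept warm, or of RNA before the pull-down, were not analysed here, so neither an effect of cold nor the RNA carried over from other cells could be measured.

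Cytochromes P450 are membrane-bound haem enzymes that insert 1 atom of molecular oxygen into a substrate, with electrons passed on from NADPH by a reductase. Some act on the body's own molecules at a fixed step, as in the synthesis of cholesterol, bile acids and steroid hormones or the removal of vitamin D and retinoic acid. Families 2, 3 and 4 hold many close gene copies that oxidise drugs, solvents and fatty acids, and the liver is their best known site. Every active enzyme binds its haem through a cysteine in a conserved loop near the end of the protein. Codons of such a loop were found in 94 of 97 members with a protein-coding transcript and in 13 of the 14 members abundant enough to be tested. The loop is shown for the members on which the results turn, as the 30 coding bases that start the loop (GENCODE M21 transcripts, 5′ to 3′), with the cysteine codon in capitals.
Cyp2e1: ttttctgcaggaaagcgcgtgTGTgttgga
Cyp51: tttggagctgggcgtcatcgtTGTgttgga
Cyp4f17: ttttctgctgggcctaggaacTGCatagga
Cyp2u1: tttgggatagggaagcgggtgTGTatggga
Cyp27a1: ttcggctatggggttcggtctTGCctgggt
The places of the cysteine codon and of the phenylalanine and glycine codons before it follow from how the loop was found. Transcripts with a glycine codon at the end of the stretch were preferred. The 5 stretches differ from each other at other bases.

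Values are FPKM, fragments per kilobase of transcript scaled to library size, summed over a gene's transcripts. The libraries were shallow, with an estimated 238913 to 1072338 fragments on listed transcripts, and 1 fragment on a member was worth 0.218 to 0.354 FPKM in the median. Ucp1 had 592 to 1593 FPKM in the 8 libraries. Summed adipocyte markers (6 of 6 genes above 0 in each depot) were at 2713 to 5345 FPKM in inguinal WAT, 5348 to 8586 in perigonadal WAT and 3234 to 3863 in BAT. Inguinal replicate 3 had the lowest FPKM total, 75925, and perigonadal replicate 1 the highest, 206549, and the median of all 8958 tested genes lay 0.52 higher in perigonadal WAT than in BAT on the log2(FPKM + 1) scale, and 0.50 higher than in inguinal WAT. Most differences of members below are therefore also given after median-ratio scaling. This divides a library by its median ratio to the other libraries and brings the 3 medians to 0.01, 0.02 and -0.01. A gene was called when limma, fitted on log2(FPKM + 1) over all tested genes, gave a Benjamini-Hochberg adjusted p under 0.05. For inguinal WAT against BAT this called 2.2 percent of all tested genes (1.73 percent higher, 0.469 percent lower), and 4.62 percent after scaling (2.99 higher, 1.63 lower). For perigonadal WAT against BAT it called 5.18 percent (4.91 higher, 0.268 lower), and 6.11 percent after scaling (2.61 higher, 3.49 lower). For inguinal against perigonadal WAT it called 0.703 percent (0.301 higher, 0.402 lower), and 0.313 percent after scaling (0.313 higher, 0 lower). Whether libraries came from separate animals is not stated in the labels, so the p-values cover only how far these samples spread, possibly for technical reasons.

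Of the 101 members, 57 were listed at 0 in all 8 libraries and 44 were above 0 in at least 1. Inguinal WAT had 15 members above 0 in each of its libraries, perigonadal WAT (2 libraries) 22 and BAT 15. Above 0 in at least 1 library were 36, 31 and 28, so perigonadal WAT was highest under the first rule, which is easier to pass with 2 libraries than with 3, and not under the second. A mean of at least 1 FPKM was reached by 13, 13 and 12 members. Only 14 members reached 1 FPKM in at least 2 libraries and were tested, and 13 of the 101 were above 0 in all 8 libraries. The 30 members above 0 but not tested had at most 1.38 FPKM in any library, which was Cyp2c70 in perigonadal replicate 1, and 3 of them reached 1 FPKM in a library. Such values rest on a few fragments, or on less than 1 that the quantification assigned. Cyp2b9, Cyp2b19 and Cyp4f15 had an estimated 0.0 fragments in every library, and Cyp2d10 at most 0.1. The counts above 0 therefore include members without a whole fragment. A gene listed at 0 may be present below the level of 1 fragment. A 0 in these files need not mean a low level at all. Hmgcs1, which makes a precursor of all sterols, was at 0 in all libraries, and the files list it only on an unplaced sequence of mm9, where each of 149 transcript lines was at 0 in every library. Of the P450 transcripts 0 are listed on such a sequence, and the 57 members are described here only as listed at 0.

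By role, none of the 6 steroid hormone enzymes (Cyp11a1, Cyp11b1, Cyp11b2, Cyp17a1, Cyp19a1 and Cyp21a1) was above 0 in any library. Of 7 sterol and bile acid enzymes, 5 were above 0 and 2 were tested. Of 6 enzymes of vitamin D and retinoic acid, 2 were above 0 (Cyp2r1 and Cyp26b1, at most 0.596 FPKM) and 0 were tested. Family 1, whose members oxidise aromatic compounds under control of the aryl hydrocarbon receptor, had 2 of 3 members above 0, at most 0.905 FPKM, and 0 tested. Families 2 and 3 without the members just named had 23 of 58 above 0 and 6 tested, and family 4 had 11 of 20 above 0 and 5 tested. Cyp20a1, an enzyme without a firmly known substrate, was tested as the remaining member.

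**Figure D1:**
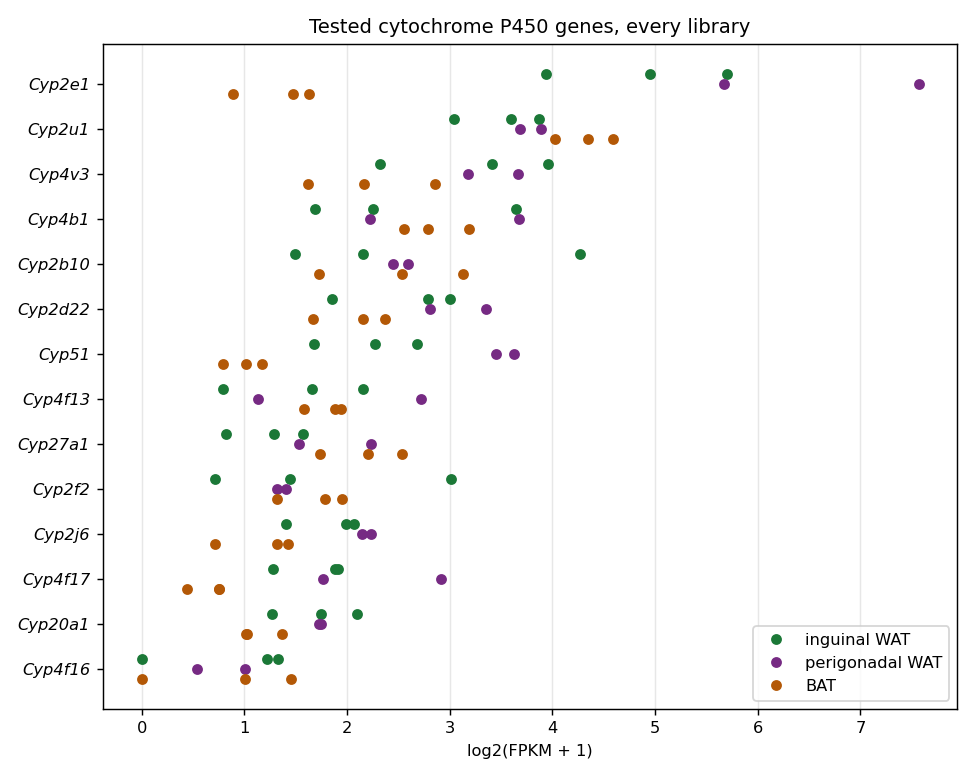
Level of the 14 tested cytochrome P450 genes in each library, as log2(FPKM + 1) on the horizontal axis, with 1 point per library coloured by depot and genes ordered by their mean. Cyp2e1 has the highest points in WAT and some of the lowest in BAT, whereas Cyp2u1 has its highest points in BAT.

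Cyp2e1, an enzyme of family 2 that oxidises ethanol, acetone and other small molecules, was the most abundant member in all 5 WAT libraries and stood 20.2-fold (inguinal) and 75.8-fold (perigonadal) higher in mean FPKM in WAT than in BAT. Cyp2e1 (mm9 chr7:147949731-147960876, plus strand) had 51.1, 30.0 and 14.35 FPKM in inguinal WAT, 188.7 and 49.85 in perigonadal WAT, and 2.09, 1.78 and 0.853 in BAT, given here and below in the order of the replicate numbers. Every WAT library lay above every BAT library, and perigonadal replicate 1 lay far above the rest. The BAT values rest on 3.8, 3.3 and 1.4 fragments, as derived from the deposited confidence bounds, against 30.0 to 135.5 in inguinal WAT and 134.1 and 677.9 in perigonadal WAT. Against BAT, the log2 fold change was 3.54 (SE 0.44, limma adjusted p = 7.62e-09) for inguinal WAT and 5.29 (SE 0.49, limma adjusted p = 1.46e-13) for perigonadal WAT. These were the 9th and the 3rd highest of 8958 log2 fold changes in their comparisons. After scaling they were 3.58 (limma adjusted p = 0.000369) and 4.67 (limma adjusted p = 0.000238). Without a filter on low values the inguinal call was lost (limma adjusted p = 0.0833), and without perigonadal replicate 1 the perigonadal difference was 4.34 (limma adjusted p = 8.59e-09).

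Cyp2e1 also weighed differently in the sum of the family. It accounted for 30.1 to 37.6 percent of the summed FPKM of the 101 members in inguinal WAT, 43.9 to 67.8 percent in perigonadal WAT and 1.5 to 3.61 percent in BAT. Among all genes it ranked 491st, 765th and 813th in inguinal WAT, 162nd and 456th in perigonadal WAT, and no higher than 5105th in BAT. Cyp2e1 is abundant in hepatocytes, and 4 of 6 hepatocyte markers (Apoa1, Ttr, Ahsg and Fga) were at 0 in all libraries. The 6 hepatocyte markers together had 2.33 to 3.39 FPKM in inguinal WAT, 4.15 to 4.72 in perigonadal WAT and 1.59 to 2.76 in BAT, most of it Serpina1a. Fibroblast and preadipocyte markers (8 genes) had summed levels of 11.9 to 21.7, 20.8 to 103.4 and 3.06 to 9.67 FPKM in the same order. Of the 4 tested, 0 were called in inguinal WAT against BAT, and 3 were called higher in perigonadal WAT, 1 after scaling. Dcn, which encodes the matrix proteoglycan decorin, had 28.9 FPKM in perigonadal replicate 1 and 4.79 in replicate 2. In inguinal WAT it had 3.38, 1.81 and 0.534 FPKM, and in BAT it was above 0 only in replicate 3, at 1.81. Mesothelium markers (4 genes) summed to 1.82 to 12.7 FPKM in perigonadal WAT, 0 in inguinal WAT and at most 0.155 in BAT. Mammary luminal markers (8 genes, Wap at 0) summed to 94.3 to 109.0 FPKM in inguinal WAT against 1.80 to 1.96 and 7.02 to 22.0, and smooth muscle markers (6 genes) to 42.4 to 133.8 against 7.96 to 14.1 and 6.90 to 8.24. The part of these cells in the P450 values was not tested, and in bulk RNA fewer cells of a type cannot be told apart from less RNA per cell.

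The promoter of Cyp2e1 is shown because this gene carries the largest difference among the tested members (RefSeq, GRCm38.p6, chr7:140763569-140763818, plus strand, the 250 bases before the start). Capitals mark CCAAT on either strand and TATAAA.
Cyp2e1: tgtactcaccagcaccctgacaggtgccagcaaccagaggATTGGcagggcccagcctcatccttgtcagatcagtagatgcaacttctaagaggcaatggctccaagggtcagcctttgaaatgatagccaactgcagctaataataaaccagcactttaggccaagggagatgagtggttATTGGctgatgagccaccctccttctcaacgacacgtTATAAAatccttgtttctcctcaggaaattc
A TATAAA begins 31 bases before the start, and CCAAT matches, both on the opposite strand, lie 210 and 68 bases before it. TATAAA was found, on either strand, in the 300-base windows of 15.7 percent of 27025 genes. It was found in those of 32 of the 75 P450 members matched to the table, so it is not particular to Cyp2e1 in the family. Of the 11 tested members matched, 1 had it, Cyp2e1 itself. No GGGCGG lies in the window of Cyp2e1.

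**Figure D2:**
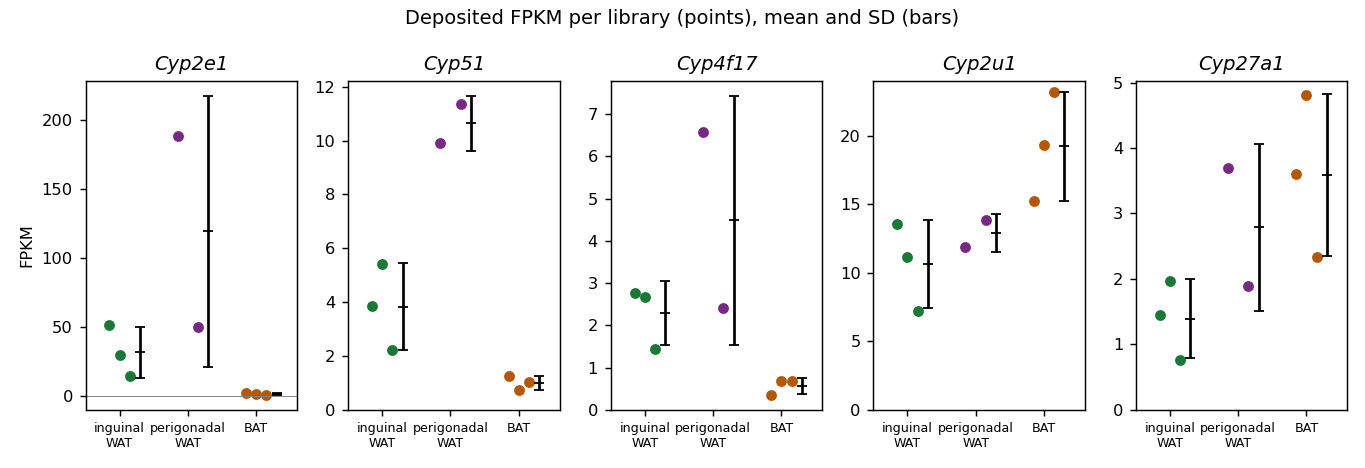
Deposited FPKM of 5 members on the vertical axes, with 1 point per library by depot and a bar for the mean and SD of the depot. Cyp2e1, Cyp51 and Cyp4f17 are higher in every WAT library than in any BAT library, and Cyp2u1 is higher in every BAT library than in any WAT library.

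Cyp51, the P450 of cholesterol synthesis, which demethylates lanosterol, was 10.6-fold higher in perigonadal WAT than in BAT. It had 3.85, 5.44 and 2.21 FPKM in inguinal WAT, 9.92 and 11.4 in perigonadal WAT, and 1.25, 0.732 and 1.02 in BAT (mm9 chr5:4080674-4104697, minus strand). The 3 depots did not overlap, with perigonadal WAT highest and BAT lowest. The BAT values rest on 8.0, 5.0 and 7.0 fragments. The log2 fold change of perigonadal WAT against BAT was 2.55 (SE 0.44, limma adjusted p = 2.86e-05) and 2.00 after scaling (limma adjusted p = 0.00354). For inguinal WAT against BAT it was 1.22 (SE 0.39, limma adjusted p = 0.0936), which did not pass, and 1.24 after scaling (limma adjusted p = 0.0202), which did. Without inguinal replicate 3 the inguinal difference was called as deposited (1.49, limma adjusted p = 0.0117) and not after scaling (1.27, limma adjusted p = 0.0568).

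Most of the listed genes that act before and after Cyp51 in sterol synthesis were called higher in the same comparison, though most of these calls were lost without perigonadal replicate 1. Of 18 listed genes (2 regulators included), 17 were tested, and Hmgcs1 was listed at 0 in all libraries. In perigonadal WAT against BAT, 13 were called higher and 0 lower, with a median log2 fold change of 1.72 beside 0.52 for all tested genes, and after scaling 11 were higher and 0 lower, with a median of 1.11 beside 0.02. The 13 were Insig1, Sc5d, Fdps, Pmvk, Nsdhl, Idi1, Sc4mol, Sqle, Lss, Dhcr7, Hsd17b7, Tm7sf2 and Mvd, with log2 fold changes from 1.44 (Tm7sf2) to 2.49 (Idi1). In inguinal WAT against BAT, 4 were called higher (Fdps, Pmvk, Idi1 and Lss) and 0 lower, with a median of 0.97 beside 0.03, and after scaling 11 were higher and 0 lower. Lss, which makes lanosterol, the substrate of Cyp51, had 6.08, 6.48 and 4.69 FPKM in inguinal WAT, 13.5 and 11.3 in perigonadal WAT, and 0.995, 1.97 and 1.26 in BAT, so its depots did not overlap either. Insig1, a sterol-regulated inhibitor of the pathway, and Sc5d, a desaturase late in the pathway, were the most abundant of the list and averaged 135.0 and 116.1 FPKM in perigonadal WAT against 23.9 and 28.8 in BAT. Without perigonadal replicate 1, 3 of the 13 perigonadal calls (Idi1, Insig1 and Lss) remained and the median was 1.63, and leaving out a BAT library left 8 (replicate 1), 10 (replicate 2) or 9 (replicate 3). The count of inguinal calls was 10 without inguinal replicate 3, and 0 without inguinal replicate 1 or 2 or any 1 of the 3 BAT libraries. The 4 tested genes not called in perigonadal WAT were Mvk, Fdft1, Ebp and Srebf2, the main activator of the pathway, with log2 fold changes of 0.93, 1.05, 0.34 and 0.63 (limma adjusted p = 0.213, 0.159, 0.613 and 0.367).

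**Figure D3:**
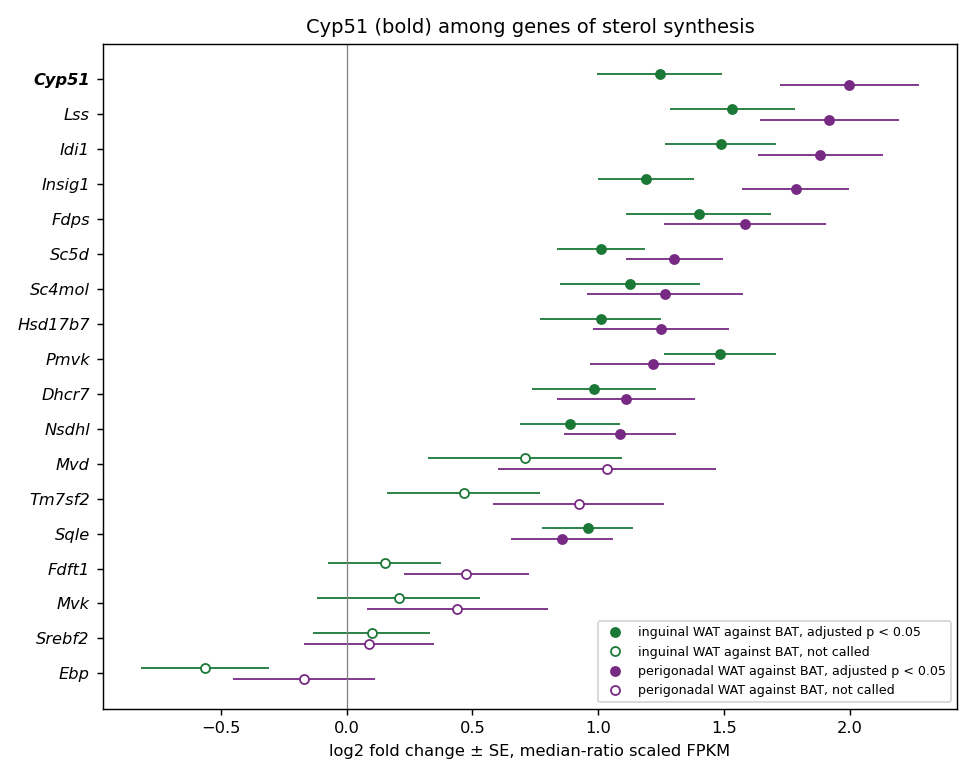
Log2 fold change with its SE, after median-ratio scaling, of Cyp51 (bold) and the 17 tested genes of sterol synthesis, for inguinal WAT (green) and perigonadal WAT (purple) against BAT, where filled points were called at a limma adjusted p under 0.05. Cyp51 has the highest perigonadal value, 2.00, just above Lss at 1.92, a gap smaller than either SE.

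The promoter of Cyp51 is shown because it holds the letters of a sterol regulatory element (RefSeq, GRCm38.p6, chr5:4104698-4104947, minus strand, the 250 bases before the start). Capitals mark GGGCGG, ATCACNNCA (a sterol regulatory element) and CCAAT, searched on both strands.
Cyp51: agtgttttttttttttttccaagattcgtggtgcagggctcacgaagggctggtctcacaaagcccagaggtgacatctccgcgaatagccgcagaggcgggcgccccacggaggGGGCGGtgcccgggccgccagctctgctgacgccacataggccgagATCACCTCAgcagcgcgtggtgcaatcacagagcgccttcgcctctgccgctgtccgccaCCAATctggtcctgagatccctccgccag
GGGCGG begins 135, the sterol element 89 and CCAAT 29 bases before the start, and none overlaps another. In 300-base windows around the start, ATCACNNCA was found in 3.19 percent of 27025 genes and in 3 of the 16 promoters matched from the sterol list and Cyp51 (19 genes), namely those of Cyp51, Msmo1 (listed in the files as Sc4mol) and Srebf2. CCAAT was found in 41.1 percent of genes and in 16 of the 16, GGGCGG in 38.2 percent and in 15, and TATAAA in 15.7 percent and in 0. A match describes the letters and is not evidence of binding.

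Cyp27a1, a mitochondrial sterol hydroxylase that opens the acidic route of bile acid synthesis, was 2.57-fold higher in mean FPKM in BAT than in inguinal WAT. It had 1.45, 1.97 and 0.763 FPKM in inguinal WAT, 3.69 and 1.89 in perigonadal WAT, and 3.61, 4.81 and 2.34 in BAT (mm9 chr1:74760148-74784464, plus strand). As deposited, inguinal WAT lay below BAT without overlap, and perigonadal WAT overlapped both. The perigonadal log2 fold change against BAT was -0.28 (limma adjusted p = 0.683), not called. After scaling it was -0.78 (limma adjusted p = 0.13), also not called, and perigonadal WAT lay below BAT too. The inguinal log2 fold change was -0.93 (SE 0.39, limma adjusted p = 0.356), not called, and -0.99 after scaling (limma adjusted p = 0.0463), called lower, which was lost without inguinal replicate 3 (limma adjusted p = 0.104). The other 3 members of this role above 0 (Cyp7b1, Cyp39a1 and Cyp46a1) had at most 0.529 FPKM, and Cyp7a1 and Cyp8b1, the enzymes of the classical bile acid route, were at 0 in all libraries.

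Cyp2u1, which hydroxylates long-chain fatty acids such as arachidonic acid, was the most abundant member in all 3 BAT libraries. It had 13.6, 11.1 and 7.22 FPKM in inguinal WAT, 11.9 and 13.9 in perigonadal WAT, and 15.2, 19.3 and 23.2 in BAT (mm9 chr3:130993409-131006145, minus strand). All BAT libraries lay above all WAT libraries. The log2 fold changes against BAT were -0.82 (SE 0.40, limma adjusted p = 0.569) for inguinal and -0.53 (SE 0.45, limma adjusted p = 0.457) for perigonadal WAT, and neither was called. After scaling, perigonadal WAT was called lower, at -1.15 (limma adjusted p = 0.0352), and inguinal WAT was not, at -0.83 (limma adjusted p = 0.0896). Cyp2u1 took up 26.3 to 40.7 percent of the members' summed FPKM in BAT, 9.99 to 16.3 percent in inguinal WAT and 4.28 to 12.2 percent in perigonadal WAT.

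The other tested members of family 2 were Cyp2b10, Cyp2d22, Cyp2f2 and Cyp2j6, and none was called in any of the 3 comparisons, as deposited or scaled. Cyp2b10, which oxidises drugs and is induced in liver through the nuclear receptor CAR, had 18.3, 3.46 and 1.81 FPKM in inguinal WAT, 5.02 and 4.46 in perigonadal WAT, and 7.74, 2.32 and 4.82 in BAT. Inguinal replicate 1 stood alone above all other libraries, and the depots overlapped. Cyp2f2, known for oxidising naphthalene in the airway, showed the same library highest, with 7.06, 1.72 and 0.643 FPKM in inguinal WAT, 1.497 and 1.65 in perigonadal WAT, and 2.86, 1.49 and 2.45 in BAT. Both genes lie in 1 cluster of 13 members on chromosome 7 (mm9 chr7:26587495-27943583), of which 8 were above 0. Cyp2d22, a member of a drug-oxidising subfamily, had 7.02, 5.92 and 2.63 FPKM in inguinal WAT, 9.25 and 5.99 in perigonadal WAT, and 4.16, 3.47 and 2.19 in BAT. Its perigonadal values lay above BAT, with a log2 fold change of 1.02 (SE 0.45, limma adjusted p = 0.181), and 0.44 after scaling. Cyp2j6, of a subfamily that makes epoxides of arachidonic acid, had 2.97, 3.18 and 1.65 FPKM in inguinal WAT, 3.43 and 3.70 in perigonadal WAT, and 1.68, 1.49 and 0.639 in BAT. Perigonadal WAT lay above BAT here too, with a log2 fold change of 1.04 (SE 0.43, limma adjusted p = 0.147), and 0.57 after scaling.

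Family 4 enzymes hydroxylate fatty acids, and those of subfamily 4f also act on leukotrienes. Cyp4f17 was 7.82-fold higher in mean FPKM in perigonadal WAT and 4.00-fold higher in inguinal WAT than in BAT. It had 2.77, 2.68 and 1.43 FPKM in inguinal WAT, 6.57 and 2.40 in perigonadal WAT, and 0.354, 0.682 and 0.683 in BAT (mm9 chr17:32643407-32665839, plus strand). Each WAT library lay above each BAT library, but the BAT values rest on 1.0, 2.0 and 2.0 fragments. All BAT values lie under the filter of 1 FPKM, so Cyp4f17 entered the test only through WAT libraries, where it is higher. The perigonadal log2 fold change was 1.70 (SE 0.43, limma adjusted p = 0.0082), and 1.21 after scaling (limma adjusted p = 0.0219). That call was lost without perigonadal replicate 1 (1.12, limma adjusted p = 0.673), without BAT replicate 1 (1.59, limma adjusted p = 0.0609) and without a filter on low values (limma adjusted p = 0.144). The inguinal difference was 1.04 (SE 0.39, limma adjusted p = 0.217), not called, and 1.07 after scaling (limma adjusted p = 0.0272), called, which was lost without inguinal replicate 3 (limma adjusted p = 0.0725).

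Cyp4v3, a fatty acid hydroxylase, was the most abundant of family 4 in mean FPKM in both WAT depots. It had 14.5, 9.63 and 4.01 FPKM in inguinal WAT, 11.7 and 8.03 in perigonadal WAT, and 6.25, 2.07 and 3.49 in BAT. As deposited, perigonadal WAT lay above BAT and inguinal WAT overlapped it. Neither log2 fold change passed (1.21 and 1.02, limma adjusted p = 0.122 and 0.347). After scaling this order changed, as perigonadal WAT overlapped BAT and inguinal WAT lay above it. The scaled log2 fold changes were 0.62 and 1.01 (limma adjusted p = 0.337 and 0.0873), and neither passed. Without inguinal replicate 3 both passed as deposited (limma adjusted p = 0.0358 and 0.0307). Cyp4b1, which hydroxylates fatty acids and activates lung toxins, had 3.76, 11.5 and 2.22 FPKM in inguinal WAT, 11.8 and 3.66 in perigonadal WAT, and 5.91, 4.89 and 8.09 in BAT. Its WAT libraries spread above and below those of BAT. Cyp4f13 had 2.16, 3.45 and 0.732 FPKM in inguinal WAT, 5.60 and 1.20 in perigonadal WAT, and 2.84, 1.99 and 2.69 in BAT, again with WAT on both sides of BAT. Cyp4f16 had 1.33, 1.51 and 0 FPKM in inguinal WAT, 0.450 and 1.01 in perigonadal WAT, and 0, 1.75 and 1.01 in BAT, with no order among the depots. Neither Cyp4b1, Cyp4f13 nor Cyp4f16 was called in any comparison. Cyp20a1 had 3.29, 1.42 and 2.35 FPKM in inguinal WAT, 2.36 and 2.30 in perigonadal WAT, and 1.04, 1.02 and 1.59 in BAT. Its perigonadal values lay above BAT as deposited, yet the log2 fold change of 0.60 (SE 0.42, limma adjusted p = 0.377) did not pass. After scaling it was 0.17 (limma adjusted p = 0.845), and perigonadal WAT overlapped BAT.

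**Figure D4:**
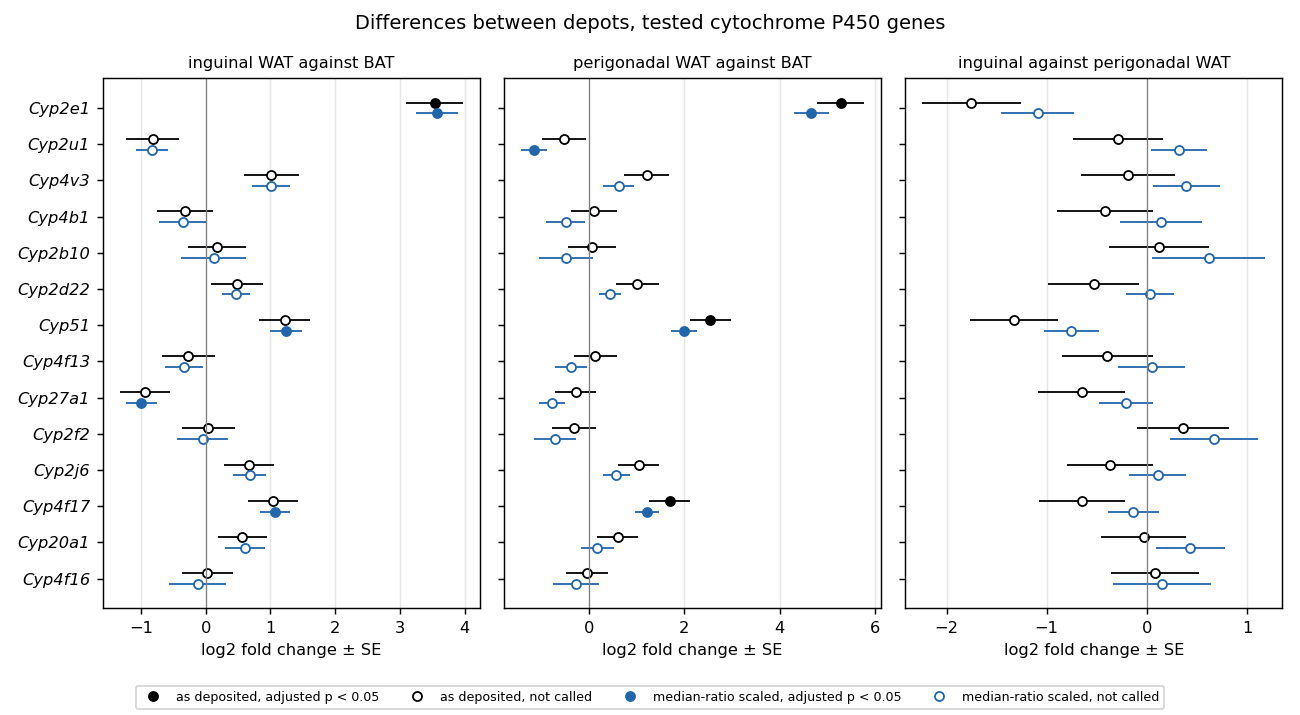
Log2 fold change with its SE for the 14 tested members in the 3 comparisons, as deposited (black) and after median-ratio scaling (blue), where filled points were called at a limma adjusted p under 0.05. Cyp2e1 and Cyp51 lie to the right in both comparisons with BAT, and scaling moves the perigonadal points to the left.

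Counted over the 14 tested members, 1 was called in inguinal WAT against BAT (Cyp2e1, higher) beside 2.2 percent of all tested genes, and 3 in perigonadal WAT against BAT (Cyp2e1, Cyp51 and Cyp4f17, all higher) beside 5.18 percent. After scaling the counts were 4 (Cyp2e1, Cyp51 and Cyp4f17 higher, Cyp27a1 lower) beside 4.62 percent and 4 (Cyp2e1, Cyp51 and Cyp4f17 higher, Cyp2u1 lower) beside 6.11 percent. The median log2 fold change of the members was 0.33 and 0.36, beside 0.03 and 0.52 for all tested genes, and 0.30 and -0.05 after scaling, beside 0.01 and 0.02. A member that is low in BAT could enter the test through its WAT libraries, as Cyp4f17 did. These counts and medians therefore describe the tested members and not the family. Both comparisons use the same BAT libraries.

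Between the white depots limma called 0 of the 14 members, as deposited and after scaling, beside 0.703 percent of all tested genes, and 2 had an unadjusted p under 0.05 as deposited. These were Cyp2e1, lower in inguinal WAT by a log2 fold change of -1.75 (SE 0.49, limma adjusted p = 0.0718), and Cyp51, at -1.32 (SE 0.44, limma adjusted p = 0.181). After scaling they were -1.09 (limma adjusted p = 0.417) and -0.75 (limma adjusted p = 0.481). The value for Cyp2e1 was -0.80 without perigonadal replicate 1 (limma adjusted p = 0.998), -2.70 without perigonadal replicate 2 (limma adjusted p = 0.0017) and -1.80 without inguinal replicate 2 (limma adjusted p = 0.0434).

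Of the 101 members, 71 had at least 1 other listed member of their subfamily, and 6 of the 14 tested ones did (Cyp2b10, Cyp2d22, Cyp2j6, Cyp4f13, Cyp4f16 and Cyp4f17). Fragments from a stretch that 2 genes share can be divided between them by the quantification. The share of each coding sequence that occurs unchanged, on either strand, in a transcript of another gene was therefore computed over all its 50-base stretches. It was 0 percent for Cyp2e1, Cyp51, Cyp27a1 and Cyp20a1. It was 1.03 to 6.03 percent for Cyp2j6, Cyp4f13 and Cyp4f17, and over 10 percent for the remaining 7 tested members, up to 25.9 percent for Cyp2u1 (shared with 4930534D22Rik, not analysed here) and 36.5 percent for Cyp4f16 (mostly with Cyp4f37). Untested members reached 46.8 percent (Cyp4a32) and 43.3 percent (Cyp2d10). Over the whole transcript, on which FPKM rests, Cyp2e1 shared 4.82 percent, Cyp51 3.17 percent and Cyp20a1 5.06 percent. Only 1 tested member, Cyp27a1, shared no stretch there. Over 10 percent of the whole transcript was shared by 3 tested members, Cyp4f16 (26.5 percent), Cyp2u1 (14.8 percent) and Cyp4b1 (10.3 percent). The values of the 7 tested members over 10 percent in the coding part are uncertain. So are those of Cyp2b13 (33.3 percent of the coding part) and of the low Cyp2d and Cyp4a members. How fragments were divided was not measured, so a share does not give the size of the error.

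**Figure D5:**
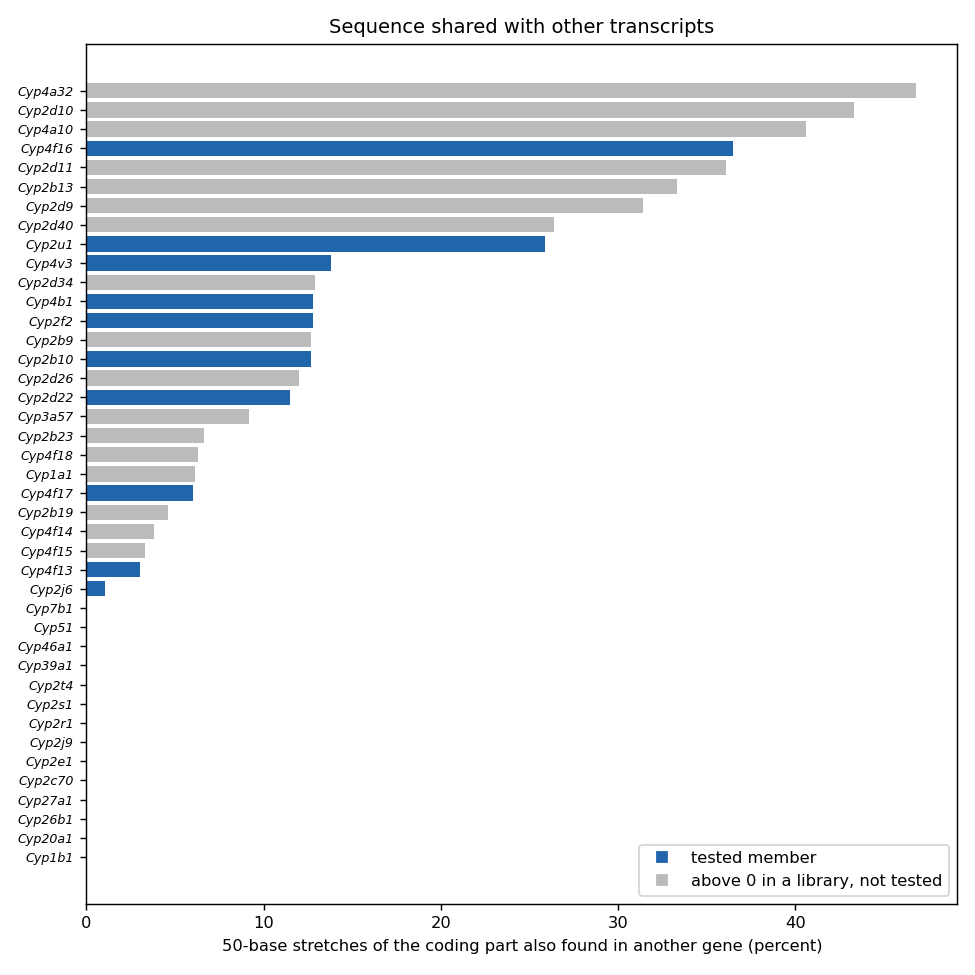
Percent of 50-base stretches of the coding part that also occur in a transcript of another gene, for members above 0 in at least 1 library, tested members in blue and untested ones in grey. Cyp2e1, Cyp51 and Cyp27a1 share none in the coding part, whereas Cyp4f16 shares 36.5 percent and Cyp2u1 25.9 percent.

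How alike such copies are is shown by 60 coding bases around the haem loop of the 4f genes on chromosome 17, with capitals where a base differs from Cyp4f17, because Cyp4f17 was called and its neighbours were not.
Cyp4f17: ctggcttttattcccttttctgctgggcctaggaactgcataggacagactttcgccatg
Cyp4f16: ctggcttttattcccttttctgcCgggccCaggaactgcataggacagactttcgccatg
Cyp4f13: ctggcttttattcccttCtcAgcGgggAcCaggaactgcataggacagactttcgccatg
Cyp4f16 differs from Cyp4f17 at 2 of these 60 bases and Cyp4f13 at 5. The same stretch of 3 of the 2b genes follows, with capitals where a base differs from Cyp2b10.
Cyp2b10: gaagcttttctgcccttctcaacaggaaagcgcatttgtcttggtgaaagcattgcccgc
Cyp2b9: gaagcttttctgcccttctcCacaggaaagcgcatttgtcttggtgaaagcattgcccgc
Cyp2b13: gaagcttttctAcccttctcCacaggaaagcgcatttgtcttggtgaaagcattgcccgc
Cyp2b9 differs at 1 base, Cyp2b13 at 2 and Cyp2b23, not printed, at 4. All 5 listed Cyp2b genes were above 0 in at least 1 library, but those other than Cyp2b10 had at most 0.321 FPKM. The large gene clusters differed in how many members were above 0. In the Cyp2c cluster on chromosome 19, 1 of 15 members was above 0, and in the Cyp3a cluster on chromosome 5 it was 1 of 7. In the Cyp2d cluster on chromosome 15 it was 9 of 10, of which Cyp2d22 alone was tested. Several of the 9 lacked a whole fragment, as Cyp2d10, Cyp2d13, Cyp2d34 and Cyp2d40 had at most 0.1 in any library. Of the 57 members at 0, 43 had a listed relative in their subfamily, and shared sequence was not computed for members at 0.

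Genes that serve the P450 enzymes (33 tested in 3 lists) were called at shares near those of all genes, 0 in inguinal WAT against BAT beside 2.2 percent and 2 (6.06 percent) in perigonadal WAT beside 5.18 percent. After scaling it was 3 (9.09 percent) beside 4.62 percent and 2 (6.06 percent) beside 6.11 percent. Of 12 electron donors and their partners, 11 were tested, and 0 were called in inguinal WAT against BAT and 2 in perigonadal WAT (Cyb5b and Cyb5r3, both higher, 1.44 and 1.51, limma adjusted p = 0.0378 and 0.032). Both calls were lost without perigonadal replicate 1 and without any 1 of the 3 BAT libraries, and 6 genes of this list were called without inguinal replicate 3. After scaling Cyb5r3 was called in both comparisons and Cyb5b in neither. Cyb5, which encodes cytochrome b5 and was the most abundant of this list, had 115.1, 116.1 and 99.7 FPKM in inguinal WAT, 144.5 and 130.5 in perigonadal WAT, and 95.3, 56.2 and 78.9 in BAT. Its WAT libraries lay above BAT, and it was not called. Of 13 genes of haem synthesis and breakdown 11 were tested and 0 called, among them the most abundant ones, Urod and Alas1, which act in haem synthesis and averaged 17.4 and 15.3 FPKM in BAT. After scaling 1 was higher in inguinal WAT (Blvrb, biliverdin reductase) and 1 lower in perigonadal WAT (Hmox2, a haem oxygenase). A list of 19 genes held ligand sensors that control P450 genes, with a few partners and targets of the aryl hydrocarbon receptor. Of these 11 were tested and 0 called, and Nr1h3 and Ppara were the most abundant, at 25.8 and 9.44 FPKM in BAT on average. After scaling Nr1h3, the oxysterol receptor LXR alpha, was lower in inguinal WAT. Nr1i2, Nr1i3 and Hnf4a, which encode PXR, CAR and a liver-enriched factor, were at 0 in all libraries.

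Among 27 other enzymes and carriers of steroids, retinoids and eicosanoids, 12 were tested. In inguinal WAT against BAT 1 was called higher (Hsd11b1), beside 1.73 percent of all tested genes. In perigonadal WAT 5 were (Hsd11b1, Aldh1a1, Hsd17b12, Hsd17b7 and Hsd3b7), beside 4.91 percent, and 0 were called lower in either. Hsd17b7 is also among the called sterol synthesis genes above. Without perigonadal replicate 1 only Hsd11b1 of the 5 stayed called, without BAT replicate 2 or 3 only Hsd11b1 and Hsd17b7, and without BAT replicate 1 these and Aldh1a1, whereas without inguinal replicate 3 the count was 8. After scaling Hsd11b1 and Hsd17b7 were called in each comparison. Hsd11b1, which regenerates active glucocorticoid, had 22.4, 84.7 and 25.9 FPKM in inguinal WAT, 89.0 and 59.3 in perigonadal WAT, and 4.28, 5.78 and 9.35 in BAT. All WAT libraries lay above BAT, with log2 fold changes of 2.40 (limma adjusted p = 5.8e-05) and 3.36 (limma adjusted p = 2.89e-07), and 2.40 and 2.70 after scaling. Hsd17b12, the most abundant of this list, makes very long fatty acids, and averaged 246.5, 385.2 and 166.0 FPKM in inguinal WAT, perigonadal WAT and BAT. Its perigonadal call was lost after scaling (0.53, limma adjusted p = 0.23). Ephx2, which hydrolyses the epoxides that P450 enzymes make from fatty acids, came next, with 99.1, 143.1 and 71.8 FPKM in the same order, and was not called. Star, which brings cholesterol to the first steroid hormone enzyme, averaged 0.221, 0.381 and 0.330 FPKM, and Hsd3b1, Inha, Fshr and Lhcgr, other markers of steroid-making and ovarian cells, were at 0 in all libraries.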

How the data were processed

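RNA of 8 libraries was sequenced after purification of ribosome-bound RNA. The submitters' processing notes name TopHat, Cufflinks and the build mm9, with versions and options not given in the sources used here. The authors deposited, per library, FPKM with confidence bounds for 28702 transcripts of 22552 gene symbols. The files' attribute column holds these values as text. Groups and replicate numbers came from the sample titles.

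FPKM was summed per gene. A gene was tested when 2 or more libraries had at least 1 FPKM and its longest transcript had 300 nt or more, which left 8958 genes. limma 3.58.1 (R 4.3.3) was fitted with a variance trend on log2(FPKM + 1), with 8 libraries in 1 model of 3 groups, two-sided, with Benjamini-Hochberg adjustment within each of 3 comparisons. Fold changes on this scale understate those of low genes, and ratios are of mean FPKM. On simulated data for inguinal WAT against BAT with 8958 genes, 97 percent of genes changed by 2 on the log2 scale and 100 percent of those changed by 4 were recovered. The simulated noise was independent between genes, with a spread set by the gene mean and no library-wide shifts. These rates therefore check the fitting steps and do not measure recovery in the real libraries.

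The files hold no counts. Fragments were derived from the FPKM and its upper bound, and 83.9 to 92.8 percent of low values came out whole within 0.05. Precision covers counting error only. Named with values were members called in any comparison or with a depot mean of at least 1 FPKM, and from partner lists the called genes and the 2 most abundant. Members and lists were chosen with earlier results of these data known. Some genes of the partner lists are not reported here and were left out of their counts. Coordinates of genes are mm9, and those of promoters GRCm38.p6. Transcript sequences are from GENCODE M21, taking for each gene the coding transcript with the haem loop and the longest reading frame. The loop was matched by its conserved residues after translation. Python 3.11.15, pandas 2.3.3, numpy 2.4.6 and matplotlib 3.10.9 were used. Alternatives covered pseudocounts, filters, scaling, model terms, transcript choice and each library left out.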

Additional observations from a re-analysis of the deposited data

How the results depend on the processing

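Over 42 pairs of a tested member and a comparison and 20 alternative settings, 0 called differences reversed, and 20 pairs that were not called changed sign in some setting. Cyp2e1 against BAT was called in 19 of 20 settings for inguinal WAT and in 20 of 20 for perigonadal WAT, and Cyp51 in perigonadal WAT in 20 of 20. The count of members called in inguinal WAT against BAT was 0 without a filter on low values, 4 with median-ratio scaling, 4 with quantile normalization, and 1 to 3 when 1 library was left out. Calls over all genes in this comparison were also fewest without a filter and most numerous with median-ratio scaling (4.62 percent of tested genes). In perigonadal WAT against BAT leaving out 1 library gave 2 to 6, with 6 without inguinal replicate 3. Calls over all genes were most numerous in that setting too. Between the white depots it was 2 with a pseudocount of 5, 1 with a minimum FPKM of 5, and 0 to 1 when 1 library was left out. Of the partner genes, 5 were called in inguinal WAT against BAT, 3 with a pseudocount of 5, 0 without a filter, 15 with median-ratio scaling, 13 with quantile normalization and 1 to 14 with 1 library left out. In perigonadal WAT 19 were called, 11 with a pseudocount of 0.1, 7 without a filter and 4 (without perigonadal replicate 1) to 29 (without inguinal replicate 3) with 1 library left out. The causes were not tested.

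Members above 0 in at least 1 library were 36 in inguinal WAT and 28 in BAT, and those with at least 1 FPKM in every library 13 in perigonadal WAT and 9 in BAT. Leaving out 1 library gave 15 to 20 in inguinal WAT, 23 to 30 in perigonadal WAT and 16 in BAT. Over all genes, calls of inguinal WAT against BAT ran from 11 (no filter) to 414 (median-ratio scaling), of perigonadal WAT against BAT from 105 (without perigonadal replicate 1) to 1326 (without inguinal replicate 3), and between the white depots from 5 (pseudocount of 0.1) to 220 (without perigonadal replicate 2). Median-ratio scaling together with leaving out inguinal replicate 3, chosen after seeing the data, gave 1, 4 and 0 member calls and, in inguinal WAT against BAT, 8 partner calls.

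The shared replicate numbers did not meet the rule for pairing, with correlations of 0.126, 0.08 and 0.1 between same-numbered inguinal and BAT libraries, although each of these 6 libraries correlated better with its own number than with the other numbers of the other depot, which is a hint from the data and not the design. The hint did not extend to perigonadal WAT, whose same-numbered pairs had correlations of -0.014 and -0.018 with BAT and -0.027 and -0.087 with inguinal WAT. With the number as a replicate block, 2 members were called in inguinal WAT against BAT, the added one being Cyp51 (adjusted p = 0.0482), 3 in perigonadal WAT against BAT and 0 between the white depots.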
